A study of Mus musculus with 40 samples.

Results

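The STAT genes described here were the 6 rows of the RNA-seq table that carry the symbols Stat2, Stat3, Stat4, Stat5a, Stat5b and Stat6 and were selected by these symbols, out of 21950 genes. All 6 passed the filter on low values in every fit. They were followed through 24 libraries of mouse CD4+ T cells in 8 groups of 3. Tconvs (conventional CD4+ T cells) and tTregs (thymus-derived Tregs, labelled nTreg) were sorted from spleens of 2- to 4-month-old C57BL/6 mice that carry a Foxp3 fluorescent reporter, and were sequenced resting or activated. iTregs (induced Tregs) were made from naive CD4+ T cells of 6-week-old reporter mice by 4 days of stimulation through CD3 and CD28 with 2 ng per ml TGF-β and IL-2, sorted on the reporter and rested in IL-2 for 1 day. They were then sequenced resting, restimulated through CD3 and CD28, or restimulated with CM-4620, a blocker of the ORAI calcium channel, or with CsA (cyclosporin A), which inhibits calcineurin and with it the activation of NFAT by dephosphorylation. Per the labels the CM-4620 libraries are named only for an ORAI inhibitor. The duration of activation before sequencing is not given in the sources used here. iTregs were made in culture from naive cells of younger mice, whereas Tconvs and tTregs were sorted from spleen. Lineage, culture, starting cells and mouse age therefore cannot be told apart. Whether resting Tconvs and tTregs were also kept in medium before RNA-seq is not stated in the methods.

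STAT proteins are latent transcription factors that wait in the cytoplasm. When a cytokine binds its receptor, Janus kinases bound to the receptor tails phosphorylate a STAT on a tyrosine, the STAT pairs through its SH2 domain, enters the nucleus and binds DNA. In CD4+ T cells the members are known for different cytokines: STAT2 serves type I interferon together with IRF9, STAT3 serves IL-6 and IL-21, STAT4 serves IL-12, STAT5A and STAT5B serve IL-2 and IL-7 and support Foxp3 expression, and STAT6 serves IL-4. RNA-seq measures the transcripts of these genes and not the phosphorylated proteins.

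The values are normalized counts, that is reads on a gene divided by 1 size factor per library. Sequencing depth, as reads assigned to genes, was 5256800 at the lowest library and 15685234 at the highest, and the fewest reads for a member in any library were 346. Summed markers of CD4 T cells were at 15661 or more in every library. The Treg markers Foxp3, Ikzf2, Il2ra and Ctla4 summed to 458 to 478 in resting Tconvs, 5116 to 5357 in activated Tconvs and 12270 or more (12269.5 at the lowest) in every Treg library. NK cell markers were at 0 in all Treg libraries, B cell markers summed to at most 22.6, and red cell markers to at most 9.11. Summed myeloid markers ran from 7.79 in a resting tTreg library to 115 in an activated Tconv library, and summed CD8 markers reached 236 at most, in a resting Tconv library. Their part in the results was not tested. In such bulk samples, fewer cells of a type and less RNA per cell cannot be told apart. The labels do not say whether replicates came from separate mice or cultures, so p-values measure the spread between these libraries, which may be technical. The tTreg libraries spread most: pairs of replicates varied 12.7 to 36.3 times more than read sampling would, against 2.69 to 16.4 times in the other groups.

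The members lie in 3 places of the mouse genome (GRCm38, GENCODE annotation). Stat5b (ENSMUSG00000020919, chr11:100780731-100850724, minus strand), Stat5a (ENSMUSG00000004043, chr11:100859351-100885169, plus strand) and Stat3 (ENSMUSG00000004040, chr11:100885098-100939540, minus strand) are neighbours. Stat5b and Stat5a start back to back, 8627 bases apart, and the 3′ ends of Stat5a and Stat3 overlap (0.756% of Stat3's exon bases). Stat6 (ENSMUSG00000002147, chr10:127642986-127660957, plus strand) and Stat2 (ENSMUSG00000040033, chr10:128270559-128292849, plus strand) share chromosome 10. Stat4 (ENSMUSG00000062939, chr1:51987148-52107189, plus strand) is on chromosome 1, and 26.7% of its exon bases are shared with the predicted gene Gm28177 on the same strand. Of all 50-base windows of its transcripts, 8.21% of Stat5a's are identical to a window of Stat5b, and 21.7% of Stat4's to a window of Gm28177. Gm28177 itself is not analysed here. Stat6 shares 0.909% of its exon bases with Nab2 on the other strand, and counting without strand cannot tell such reads apart. The levels of Stat4, Stat5a and Stat5b are uncertain to the extent that reads were split between near-identical stretches.

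The sequences before the annotated starts are shown for 4 members: Stat2 and Stat3, which rose together in restimulated iTregs, and the adjacent pair Stat5a and Stat5b, which moved apart in activated Tconvs. Each is the 250 bases before a RefSeq start (GRCm38.p6), 5′ to 3′ on the gene's strand, and capitals mark a motif match. Stat5a and Stat5b each have another RefSeq start that is not shown, and the Stat5b start shown lies inside the annotated gene.
Stat2 (chr10:128270248-128270497, plus): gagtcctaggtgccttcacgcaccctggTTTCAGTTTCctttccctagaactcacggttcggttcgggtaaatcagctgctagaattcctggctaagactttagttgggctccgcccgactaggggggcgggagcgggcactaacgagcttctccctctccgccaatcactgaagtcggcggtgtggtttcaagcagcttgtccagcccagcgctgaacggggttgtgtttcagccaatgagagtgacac
Stat3 (chr11:100939541-100939790, minus): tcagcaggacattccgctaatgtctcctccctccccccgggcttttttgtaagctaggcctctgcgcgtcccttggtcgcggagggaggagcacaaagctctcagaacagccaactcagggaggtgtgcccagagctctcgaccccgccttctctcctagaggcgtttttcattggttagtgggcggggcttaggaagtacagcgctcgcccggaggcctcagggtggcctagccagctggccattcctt
Stat5a (chr11:100860234-100860483, plus): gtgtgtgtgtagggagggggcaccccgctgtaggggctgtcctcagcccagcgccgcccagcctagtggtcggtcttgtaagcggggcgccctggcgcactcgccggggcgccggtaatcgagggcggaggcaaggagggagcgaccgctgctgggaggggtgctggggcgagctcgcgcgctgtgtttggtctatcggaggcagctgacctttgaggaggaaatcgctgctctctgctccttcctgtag
Stat5b (chr11:100822571-100822820, minus): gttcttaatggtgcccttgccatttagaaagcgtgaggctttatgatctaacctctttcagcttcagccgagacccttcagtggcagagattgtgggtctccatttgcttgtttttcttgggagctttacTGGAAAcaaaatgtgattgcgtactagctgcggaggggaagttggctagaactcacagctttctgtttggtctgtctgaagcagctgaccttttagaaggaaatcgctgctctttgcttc
Both strands of the 300 bases around each start (250 before, 50 after) were searched for the STAT motif GAS (TTCNNNGAA), the interferon motif ISRE (GAAA, any 2 bases, GAAA), an NFAT motif (TGGAAA) and the AP-1 motif (TGANTCA). Among 32851 mouse promoters of that length, 8.30% hold the GAS letters, 3.44% the ISRE letters, 21.4% the NFAT letters and 7.81% the AP-1 letters. The Stat2 window holds an ISRE match at base -222 on the reverse strand, counted from the start. The Stat5b start shown holds NFAT letters at -120, and the other Stat5b start, at the end that faces Stat5a (chr11:100850582-100850831), holds none of these motifs. A second Stat4 start holds an ISRE match at -97, and the other windows, those of Stat3, Stat5a and Stat6 included, hold none of these letters. The Stat5a and Stat5b windows shown share a run of 16 bases, aggaaatcgctgctct, near both starts, and in the other pairs of windows of different members the longest shared run was 11 bases.

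Stat2 had 369, 330.2 and 325 normalized counts in the 3 resting Tconv libraries and 867, 850.4 and 877 in the activated ones. Its 3 resting tTreg libraries had 833, 833 and 811 normalized counts, and the activated ones 949, 839 and 1024. It was thus already high in resting tTregs, at 826 ± 12.7 (SD, n = 3), where resting Tconvs had 341 ± 24.3, and no library of these groups overlapped. In iTregs Stat2 had 488, 506 and 476 normalized counts at rest and 1006, 1006 and 1029 after restimulation. With CM-4620 the libraries had 697, 606 and 684, and with CsA 703, 718 and 785. Every inhibitor-treated library lay between the resting and the restimulated libraries. By mean level the order of the 8 groups was restimulated iTregs, activated tTregs, activated Tconvs, resting tTregs, CsA, CM-4620, resting iTregs and resting Tconvs. In the limma fit over all 24 libraries, 3 neighbours in that order had an adjusted p below 0.05. Resting iTregs over resting Tconvs (log2 difference 0.52, adjusted p = 2.20e-06) was also past a log2 difference of 0.5. Resting tTregs over CsA (0.17, adjusted p = 0.0493) and CM-4620 over resting iTregs (0.43, adjusted p = 0.000647) were not.

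Stat3 was highest by mean in restimulated iTregs, with 4435, 4507 and 4577 normalized counts, against 2516, 2598 and 2565 in resting iTregs. With CM-4620 it had 3516, 3233 and 3267, and with CsA 3806, 3576 and 3789. As for Stat2, all 6 inhibitor-treated libraries lay between the resting and restimulated ones. Resting Tconvs had 2263, 2257 and 2199 normalized counts and activated Tconvs 3412, 3619.8 and 3599.9. In tTregs the libraries had 2745, 3078 and 3316 at rest and 4216, 3407 and 5201 after activation, the widest spread of any group for this gene (4275 ± 898, SD, n = 3). From highest to lowest mean the groups were restimulated iTregs, activated tTregs, CsA, activated Tconvs, CM-4620, resting tTregs, resting iTregs and resting Tconvs, a range of 2.01-fold. Of these neighbours, only resting tTregs over resting iTregs passed an adjusted p of 0.05 in the limma fit (log2 difference 0.25, adjusted p = 0.0268).

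Stat5a was the member that moved most in Tconvs, from 722, 735 and 735 normalized counts at rest to 3365, 3288 and 3312 after activation. Resting tTregs were already at 2905, 2796 and 2950.0, and activated tTregs at 3938, 3053 and 4119.7. iTregs stayed low throughout: 1158, 1174 and 1141 at rest, 1415, 1484 and 1479 after restimulation. The inhibitor-treated iTregs had 1127, 1214 and 1248 normalized counts with CM-4620 and 1288, 1261 and 1322 with CsA. Thus every iTreg library was above every resting Tconv library and below every library of the 3 other groups. Down the order (activated tTregs, activated Tconvs, resting tTregs, restimulated iTregs, CsA, CM-4620, resting iTregs, resting Tconvs) 3 neighbours had an adjusted p below 0.05 in the limma fit. Resting tTregs over restimulated iTregs (log2 difference 0.98, adjusted p = 1.76e-10) and resting iTregs over resting Tconvs (0.66, adjusted p = 9.20e-08) were past a log2 difference of 0.5. Activated Tconvs over resting tTregs (0.20, adjusted p = 0.0237) was not.

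Stat5b, which encodes a protein very similar to STAT5A, was highest in tTregs. Resting tTregs had 4146, 4966 and 4204 normalized counts and activated tTregs 3803, 2680.2 and 3735. Resting Tconvs had 1960.3, 2046 and 1926 and activated Tconvs 1183, 1132 and 1315. Within Tconvs this gene was thus lower where Stat5a was higher, whereas over all 24 libraries Stat5a and Stat5b correlated positively (Pearson r = 0.490). In iTregs it had 1319.6, 1199.5 and 1289 at rest, 1434, 1365 and 1403 after restimulation, 1131, 1215 and 1134 with CM-4620 and 1288, 1184 and 1278 with CsA. All 6 tTreg libraries lay above all 18 others. The order was resting tTregs, activated tTregs, resting Tconvs, restimulated iTregs, resting iTregs, CsA, activated Tconvs and CM-4620. Its first 3 steps had an adjusted p below 0.05 in the limma fit (adjusted p = 0.00367, 9.70e-07 and 0.000132) and the other 4 did not. Their log2 differences were 0.39, 0.77 and 0.497, so only the step from activated tTregs to resting Tconvs was also past 0.5.

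Stat4 divided iTregs from the other cells. Resting Tconvs had 2205, 2132 and 2218 normalized counts, activated Tconvs 1509, 1499 and 1623, resting tTregs 2621, 2910.5 and 2088, and activated tTregs 1499, 1499.5 and 1760.2. All 12 iTreg libraries were between 353 and 478: 462, 459 and 478 at rest, 423, 466 and 465 after restimulation, 353, 391 and 365 with CM-4620, and 385, 364 and 407 with CsA. The step from activated Tconvs, the lowest of the other groups, down to resting iTregs was 1.72 on the log2 scale (adjusted p = 8.94e-13). The step from resting Tconvs to activated tTregs also had an adjusted p below 0.05, but not a log2 difference past 0.5 (0.47, adjusted p = 0.000170). No other neighbours in the order of Stat4 levels, in which restimulated iTregs, CsA and CM-4620 followed resting iTregs, passed an adjusted p of 0.05 in the limma fit.

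Stat6 varied least, with a range of 1.64-fold between group means. Resting and activated tTregs had 2788.5, 2327 and 2457, and 2347, 2747 and 2941 normalized counts, and overlapped. Resting Tconvs had 2225, 2340.2 and 2222, and activated Tconvs 1925, 1818 and 1963. The iTregs had 1843, 1846 and 2024 at rest, 1752, 1798 and 1791 after restimulation, 1595, 1615 and 1682 with CM-4620, and 1693, 1565 and 1806 with CsA. Resting Tconvs over resting iTregs (adjusted p = 0.00705) was the only step between neighbours in its order that passed an adjusted p of 0.05 in the limma fit.

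**Figure D1:**
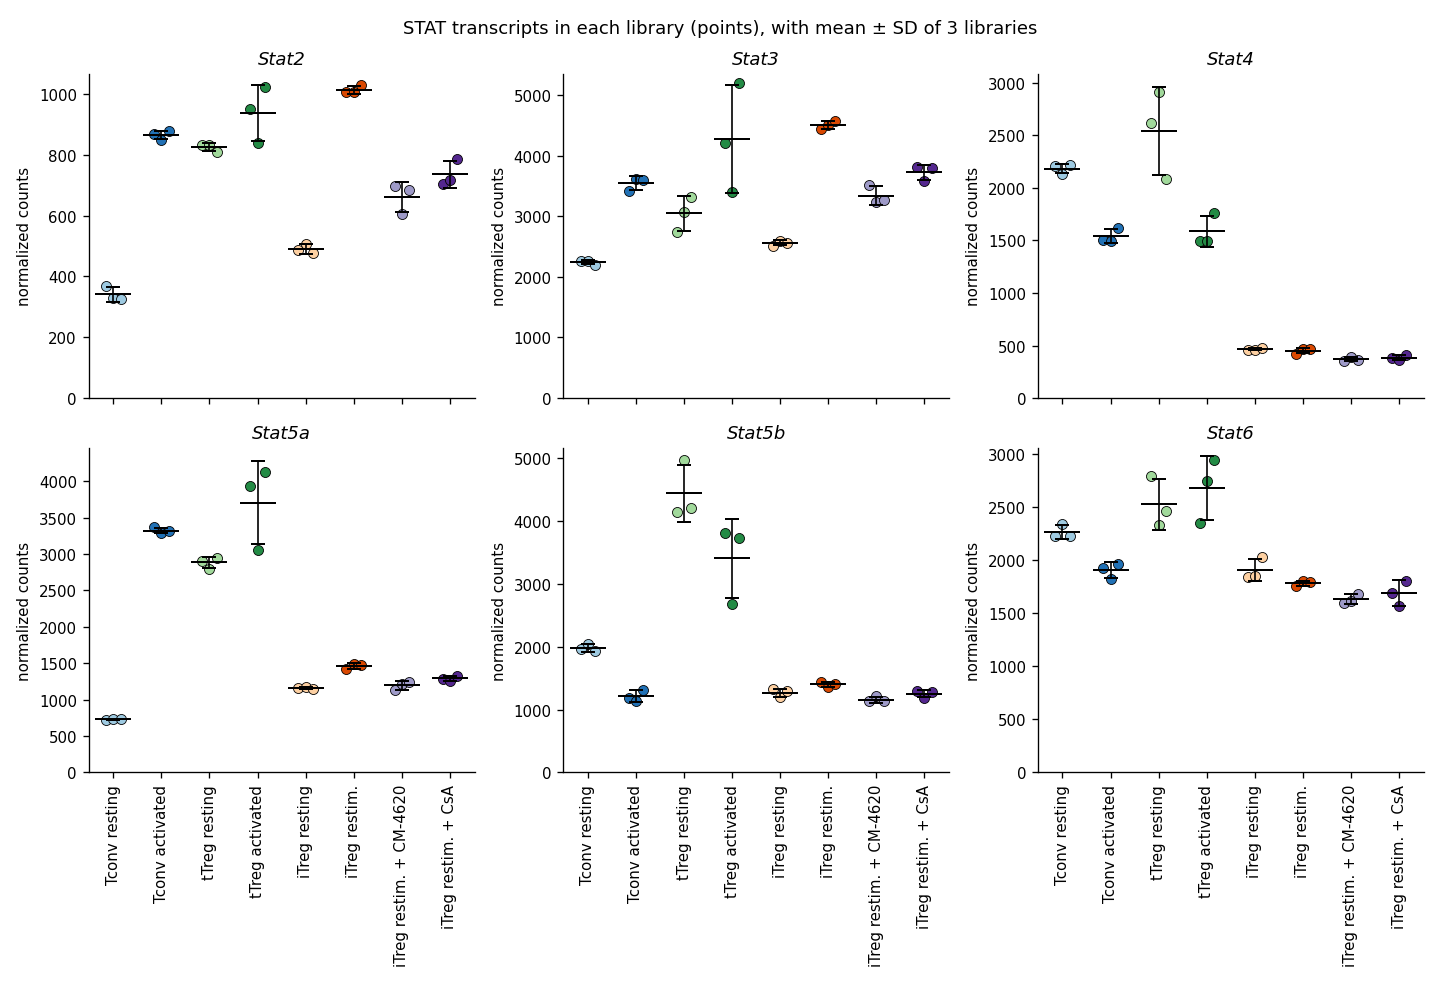
Normalized counts of the 6 STAT genes (vertical axes, each from 0) in the 8 groups; points are libraries, and bars are the mean ± SD of 3 libraries. Stat4 is at most 478 in all 12 iTreg libraries, Stat5b is highest in the 6 tTreg libraries, and Stat2 and Stat3 are highest by mean in restimulated iTregs.

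Activation of Tconvs raised Stat5a 4.54-fold, Stat2 2.53-fold and Stat3 1.58-fold, and lowered Stat5b 1.64-fold. Here a changed gene is one with a limma adjusted p under 0.05 whose log2 fold change is beyond 0.5 in either direction, thresholds that the study's methods use. By this rule 5 of the 6 members changed, where 50.2% of all genes tested did. The log2 changes were 2.18 for Stat5a (SE 0.090, adjusted p = 4.38e-11), 1.34 for Stat2 (SE 0.083, adjusted p = 3.65e-09), 0.66 for Stat3 (SE 0.12, adjusted p = 0.000163) and -0.71 for Stat5b (SE 0.12, adjusted p = 0.000104). Stat4 was at the threshold, at -0.50 (adjusted p = 0.000673), and fell short of it in 3 alternative analyses (-0.48 to -0.47) and without any of 4 single libraries (resting Tconv replicate 1 or 3, or activated Tconv replicate 1 or 2, -0.49 to -0.48). Stat6 was at -0.25 (adjusted p = 0.0256), below the fold threshold. Summed myeloid markers were 22.6 to 34.7 normalized counts in the resting and 96.1 to 115 in the activated Tconv libraries, and their part in these changes was not tested.

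Activation of tTregs changed 1 member, Stat4, where 21.9% of all genes changed. It fell 1.59-fold (log2 change -0.67, SE 0.10, adjusted p = 0.000243). Stat3 was at 0.47 (adjusted p = 0.00637) and Stat5a at 0.35 (adjusted p = 0.00858), both below the fold threshold, and Stat5b at -0.39 (adjusted p = 0.0189). For Stat3 the spread of the tTreg libraries decided the call: without resting tTreg replicate 3 the value was 0.53 and without activated tTreg replicate 2 it was 0.62, each past the threshold. With quantile normalization Stat5b reached -0.58. Stat2 was at 0.18 (adjusted p = 0.110) and Stat6 at 0.08 (adjusted p = 0.505).

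The responses to activation differed between Tconvs and tTregs for 2 members, with 34.7% of all genes past the same thresholds. The response of Stat5a was larger in Tconvs by 1.83 on the log2 scale (SE 0.13, adjusted p = 5.56e-08) and that of Stat2 by 1.16 (SE 0.12, adjusted p = 2.50e-06). In activated cells, tTregs minus Tconvs was 0.14 for Stat5a (95% interval -0.05 to 0.34) and 0.11 for Stat2 (-0.07 to 0.29). Both responses are measured from the resting level, which was higher in tTregs. For Stat3 the difference in response was 0.19 (adjusted p = 0.390), for Stat4 0.17 (adjusted p = 0.397), for Stat5b -0.32 (adjusted p = 0.153) and for Stat6 -0.33 (adjusted p = 0.0505).

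**Figure D2:**
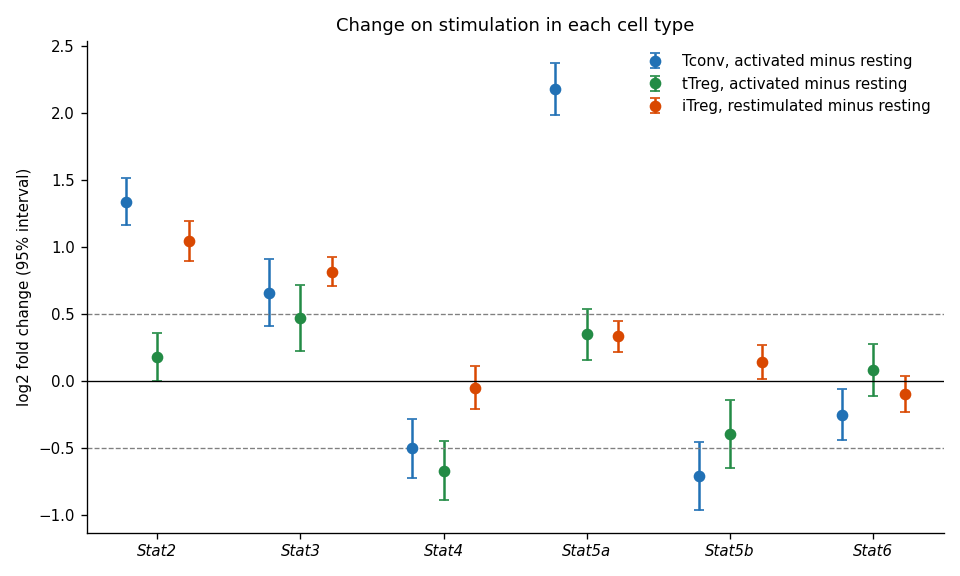
Log2 fold change on stimulation (vertical axis) for each STAT gene in Tconvs, tTregs and iTregs; points are limma estimates from 3 against 3 libraries, bars are 95% intervals and dashed lines mark the fold threshold of 0.5. Stat5a and Stat2 have their largest changes in Tconvs, and Stat2 and Stat3 are the iTreg changes past the threshold.

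At rest, 3 members were higher in tTregs than in Tconvs and none was lower, where 38.6% of all genes differed (20.5% higher). The log2 differences were 1.98 for Stat5a (SE 0.090, adjusted p = 1.60e-10), 1.27 for Stat2 (SE 0.083, adjusted p = 9.00e-09) and 1.16 for Stat5b (SE 0.12, adjusted p = 1.18e-06). Stat3 was at 0.44 (adjusted p = 0.00538), below the fold threshold, which it passed under quantile normalization (0.57) and without resting tTreg replicate 1 (0.51). Among activated cells only Stat5b differed, 2.78-fold higher in tTregs (log2 difference 1.48, SE 0.12, adjusted p = 8.66e-08), with 48.2% of all genes past the thresholds. Stat6 was just under the fold threshold there, at 0.49 (adjusted p = 0.000287), and past it under quantile normalization (0.54) and without activated tTreg replicate 1 (0.58) or activated Tconv replicate 3 (0.51).

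Resting iTregs had 4 members at other levels than resting Tconvs, with 63.6% of all genes differing. Stat4 was 4.68-fold lower (log2 difference -2.23, SE 0.10, adjusted p = 5.82e-11) and Stat5b 1.56-fold lower (-0.64, adjusted p = 0.000183). Stat5a was 1.58-fold higher (0.66, adjusted p = 8.89e-06) and Stat2 1.44-fold higher (0.52, adjusted p = 4.47e-05). The Stat2 value was 0.49 to 0.50, no longer past the fold threshold, without resting Tconv replicate 2 or 3 or resting iTreg replicate 2.

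Against tTregs at rest, iTregs were lower in 4 members, and 63.4% of all genes differed (31.1% lower in iTregs). Stat4 was 5.39-fold lower (log2 difference -2.43, SE 0.10, adjusted p = 3.10e-11), Stat5b 3.49-fold (-1.80, SE 0.12, adjusted p = 3.37e-09), Stat5a 2.49-fold (-1.32, SE 0.090, adjusted p = 5.34e-09) and Stat2 1.68-fold (-0.75, SE 0.083, adjusted p = 1.08e-06). Stat6 was at -0.40 and Stat3 at -0.25, and both passed the fold threshold only under quantile normalization (-0.63 and -0.50), which moved the median log2 difference of all genes in this comparison from 0.02 to -0.10. Compared with activated Tconvs, resting iTregs were lower in 3 members, with 41.6% of all genes differing (18.7% lower). These were Stat4 (-1.72, adjusted p = 3.60e-09), Stat5a (-1.52, adjusted p = 3.14e-09) and Stat2 (-0.82, adjusted p = 1.03e-06). Quantile normalization moved the share of higher calls among all genes from 55.1% to 42.5% in this comparison. With it Stat3, at -0.47 in the main fit, reached -0.54 and was called.

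Restimulation of iTregs raised Stat2 2.07-fold and Stat3 1.76-fold. They were the 2 members that changed, where 12.8% of all genes did (6.70% higher). The log2 change of Stat2 was 1.05 (SE 0.070, adjusted p = 6.06e-08) and that of Stat3 0.82 (SE 0.051, 95% interval 0.71 to 0.92, adjusted p = 2.72e-08). The study names both genes as examples from these same libraries, so their rise is not independent evidence. Stat5a was at 0.33 (SE 0.056, adjusted p = 0.000390), below the fold threshold. Stat5b was at 0.14 (adjusted p = 0.0888), Stat4 at -0.05 (adjusted p = 0.669) and Stat6 at -0.10 (adjusted p = 0.268). Summed myeloid markers were 11.1 to 11.6 normalized counts in resting and 28.2 to 42.3 in restimulated iTregs, and their part was not tested.

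The inhibitors ask which of these changes depend on the calcium and NFAT pathway. With CM-4620 Stat2 was 1.53-fold lower than in restimulated iTregs (log2 difference -0.62, SE 0.070, adjusted p = 6.13e-05), the 1 member past both thresholds, with 3.30% of all genes (1.79% lower). Stat3 was 1.35-fold lower (-0.43, SE 0.051, adjusted p = 8.61e-05), below the fold threshold. Stat5a (-0.29, adjusted p = 0.00457), Stat4 (-0.29, adjusted p = 0.0270) and Stat5b (-0.27, adjusted p = 0.0110) also passed the adjusted p but not the fold threshold, and Stat6 was at -0.13 (adjusted p = 0.264). For all 6 members, the uncalled Stat6 included, the 3 CM-4620 libraries lay below the 3 restimulated ones. The share of all genes separated in this way was not computed.

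With CsA no member passed both thresholds, and 2.92% of all genes did. Stat2 was closest, 1.38-fold lower than in restimulated iTregs (log2 difference -0.46, SE 0.070, adjusted p = 0.000826), and was past the fold threshold without CsA replicate 3 (-0.51). Stat3 was at -0.28 (SE 0.051, adjusted p = 0.00365). The other 4 members were between -0.23 and -0.08, at adjusted p-values from 0.0636 to 0.493. At an unadjusted limma p under 0.05 there were 5 members, all but Stat6. The share of all genes at that unadjusted p was not computed. By DESeq2 and by edgeR's quasi-likelihood test on the recovered reads 0 members passed both thresholds.

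Both drugs left part of the rise in place. Of the 524 normalized counts that restimulation added to Stat2, 32.8% ± 9.4 (SD, n = 3) remained with CM-4620 and 46.9% ± 8.3 with CsA. Of the 1947 added to Stat3, 40.0% ± 8.0 remained with CM-4620 and 59.8% ± 6.6 with CsA. Against resting iTregs, CsA-treated cells had Stat2 at 0.58 (adjusted p = 3.10e-05) and Stat3 at 0.54 (adjusted p = 2.74e-06), 2 members changed with 9.43% of all genes. CM-4620-treated cells had them at 0.43 (adjusted p = 0.000567) and 0.38 (adjusted p = 0.000112), below the fold threshold, so no member changed by both thresholds in limma, edgeR or DESeq2, and 7.10% of all genes did in limma. At an unadjusted limma p under 0.05 this comparison had 5 members, all but Stat5a. These fits share the resting or the restimulated libraries and are not independent of each other. CM-4620 minus CsA was -0.15 for Stat2 (95% interval -0.30 to -0.00, adjusted p = 0.431) and -0.16 for Stat3 (-0.27 to -0.05, adjusted p = 0.233), no member differed between the drugs by both limma thresholds, and 0.360% of all genes did. These were the 2 members at an unadjusted p under 0.05, and DESeq2 and edgeR called 0 here too. For neither comparison was the share of all genes at an unadjusted p under 0.05 computed.

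**Figure D3:**
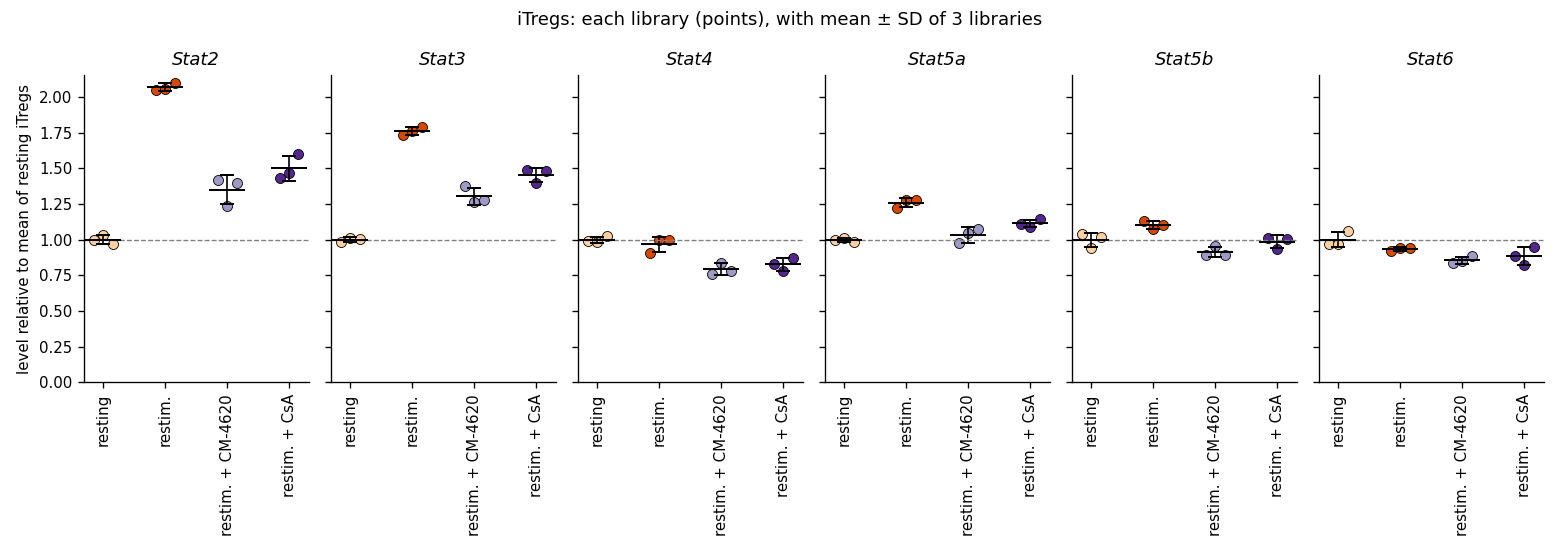
Level of each STAT gene in iTregs divided by the mean of the 3 resting libraries (vertical axis; dashed line at 1); points are libraries and bars are the mean ± SD of 3. The inhibitor-treated libraries of Stat2 and Stat3 all sit between the resting and the restimulated ones, while the means of Stat4 and Stat6 are below the resting level in all 3 stimulated groups.

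Compared with activated cells of the other lineages, restimulated iTregs had low Stat4 and Stat5a. Against activated Tconvs, 2 members differed, with 44.3% of all genes (20.0% lower): Stat4 was 3.42-fold lower (log2 difference -1.77, adjusted p = 5.24e-13) and Stat5a 2.28-fold lower (-1.19, adjusted p = 2.05e-11). Quantile normalization moved the share of higher calls among all genes from 54.9% to 43.7% here. Against activated tTregs, 4 members were lower, with 59.3% of all genes differing (28.8% lower). These were Stat4 (-1.81, adjusted p = 2.32e-13), Stat5a (-1.33, adjusted p = 1.72e-12), Stat5b (-1.26, adjusted p = 3.25e-10) and Stat6 (-0.58, adjusted p = 1.01e-06). Stat2 and Stat3 of restimulated iTregs were at 0.12 (95% interval -0.04 to 0.27) and 0.10 (-0.11 to 0.30) from activated tTregs, and at 0.23 (adjusted p = 0.0128) and 0.35 (adjusted p = 0.00419) from activated Tconvs, below the fold threshold.

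The size of the response itself differed between iTregs and tTregs for 3 members, with 21.3% of all genes. The iTreg response exceeded the tTreg response by 0.87 for Stat2 (SE 0.11, adjusted p = 3.79e-06), by 0.62 for Stat4 (SE 0.13, adjusted p = 0.00130) and by 0.54 for Stat5b (SE 0.14, adjusted p = 0.00745). For Stat4 and Stat5b the tTreg values were negative and the iTreg values near 0. The Stat5b difference was not past the thresholds in a fit of these 4 groups alone, nor without resting tTreg replicate 2 (0.45), activated tTreg replicate 2 (0.37) or resting iTreg replicate 2 (0.50). Between iTregs and Tconvs 2 members differed in response, with 44.2% of all genes. The Stat5a response was smaller in iTregs by 1.85 (log2 difference -1.85, SE 0.11, adjusted p = 9.48e-12), and for Stat5b the iTreg value exceeded the negative Tconv value by 0.85 (SE 0.14, adjusted p = 3.52e-05). Stat4 was at 0.45 (adjusted p = 0.00646), and at 0.52 and called under quantile normalization.

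To compare members with each other, normalized counts were divided by the kilobases of each gene's exons. In resting Tconvs, Stat4 led with 564 normalized counts per kb and Stat6 followed with 514 ± 15.3, whereas after activation Stat5a led with 466 ± 5.56. Resting tTregs had Stat5b first, at 801 ± 82.6, though by the longest transcript of each gene Stat4 and Stat5b were level there, at 852 ± 140 and 851 ± 87.8. Resting iTregs had Stat6 first, at 433 ± 23.6, and restimulated iTregs Stat3, at 473 ± 7.49. By the longest transcript these genes were first too, and the values were higher by over 1.5 times for Stat5a in activated Tconvs (839) and Stat3 in restimulated iTregs (746). Stat2 was the lowest or next to lowest member in every group, between 57.6 and 171 per kb.

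The balance of Stat5a to Stat5b, both per kb, turned over in Tconvs. It was 0.287 ± 0.0086 at rest and 2.14 ± 0.16 after activation (SD, n = 3), and no library overlapped. tTregs went from 0.509 ± 0.062 to 0.848 ± 0.041. All 12 iTreg libraries lay between 0.682 and 0.855, whether resting, restimulated or treated. Dividing by the longest transcript in place of all exons raised these ratios to 0.487 and 3.63 in Tconvs, to 0.863 and 1.44 in tTregs and to 1.16 to 1.45 in the iTreg libraries. Whether Stat5a is above Stat5b in iTregs and in activated tTregs therefore depends on the length used, while the order between resting and activated cells of either kind does not.

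STAT3 and STAT5 are known to oppose each other at some shared sites in Th17 cells, and the ratio of Stat3 to Stat5a plus Stat5b per kb was lowest in resting tTregs, at 0.266 ± 0.027. It was 0.395 ± 0.039 in activated tTregs, 0.512 ± 0.010 in resting Tconvs and 0.544 ± 0.025 in activated Tconvs. Resting iTregs had 0.687 ± 0.028 and restimulated iTregs 1.03 ± 0.014, the highest group. The values with CM-4620 were 0.931 ± 0.078 and with CsA 0.961 ± 0.0057. All iTreg libraries were above all other libraries on this scale. By the longest transcript resting Tconvs were at 0.657 and activated Tconvs at 0.548, the reverse of their order above, and restimulated iTregs were again highest, at 1.17. These ratios are given as descriptions, with no test.

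**Figure D4:**
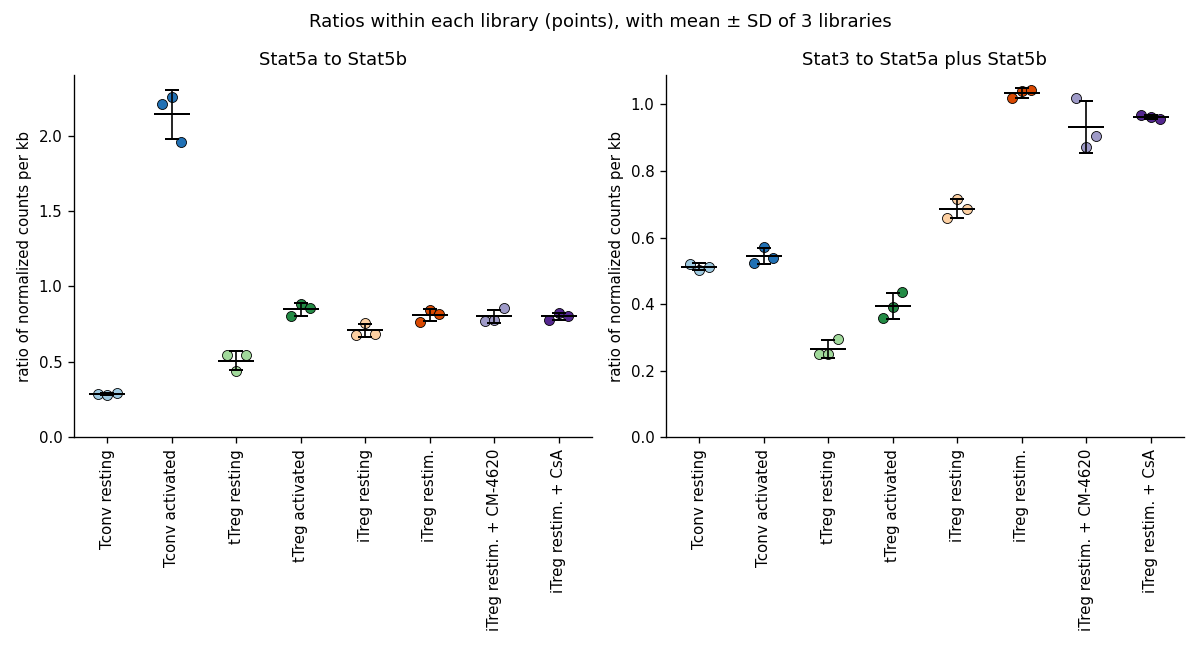
Ratio of Stat5a to Stat5b (left) and of Stat3 to the sum of Stat5a and Stat5b (right), each from normalized counts per kb of exons within a library; points are libraries and bars are the mean ± SD of 3. With this length the left ratio is above 1 in activated Tconvs and below 1 in the other 7 groups (by the longest transcript it is above 1 also in activated tTregs and all 4 iTreg groups), and the right one is highest in restimulated iTregs.

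Across the 24 libraries Stat2 and Stat3 were most alike among the members (Pearson r = 0.892), followed by Stat5b and Stat6 (r = 0.865) and Stat4 and Stat6 (r = 0.819), while Stat2 and Stat6 had an r of 0.0060. These r values are descriptions over libraries that share groups. Among 8313 genes with a mean of at least 100, the genes closest to Stat2 were 1110051M20Rik (r = 0.915), Ttc39b (r = 0.907) and Stat3. Closest to Stat3 were Fbxw9 (r = 0.894), Cog7 (r = 0.893) and Stat2. For Stat4 they were Fyb (r = 0.989), Patj (r = 0.984) and Rere (r = 0.983), and for Stat5a Cd83 (r = 0.967), Lad1 (r = 0.950) and Kif3b (r = 0.942). Stat5b was closest to Nipal3 (r = 0.982), Clec2d (r = 0.976) and Sbno1 (r = 0.972), and Stat6 to Rnf20 (r = 0.950), Nudcd3 (r = 0.947) and Aldh3a2 (r = 0.945).

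The genes around the STATs were taken from lists chosen for their known roles. Beside each count of list genes stands the share of all genes tested that passed the same thresholds in that comparison. Of the 4 Janus kinases, activation of Tconvs, in which 50.2% of all genes changed, raised Jak3, which binds the common γ chain receptors, by 2.62 (log2 change, adjusted p = 2.24e-08) and Tyk2, which serves interferon and IL-12 receptors, by 0.64 (adjusted p = 1.31e-05), and lowered Jak1 by 1.66 (-1.66, adjusted p = 2.38e-06). Jak2 was at -0.27 (adjusted p = 0.123). In restimulated iTregs (12.8% of all genes) Jak2 rose by 0.53 (adjusted p = 0.00226), Jak3 was at 0.37, Tyk2 at 0.21 and Jak1 at -0.04, all 3 below the fold threshold. CsA lowered Jak2 (-0.52, adjusted p = 0.00986), and with CM-4620 it was at -0.33 (adjusted p = 0.0944).

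Of 17 cytokine receptor genes tested, 8 rose and 4 fell on Tconv activation, where 50.2% of all genes changed, with a median log2 change of 0.53 against -0.04 for all genes tested. The 3 largest were Il2ra, the high-affinity chain of the IL-2 receptor (6.74, adjusted p = 6.58e-16), and the IL-12 receptor chains Il12rb2 (5.61, adjusted p = 1.36e-09) and Il12rb1 (5.58, adjusted p = 1.99e-14). In restimulated iTregs 3 of the 17 rose and 2 fell, with 12.8% of all genes changed (median -0.07 against -0.01): Il12rb2 by 2.56 (adjusted p = 1.85e-10), Il12rb1 by 0.74 (adjusted p = 2.37e-06), and Il7r fell by 0.70 (-0.70, adjusted p = 4.41e-05). CM-4620 lowered Il12rb2 (-0.73, adjusted p = 0.000280) and so did CsA (-0.55, adjusted p = 0.00318), while Il7r was 0.62 higher with CsA (adjusted p = 0.000693). With CM-4620 1 of the 17 passed the thresholds and with CsA 2 of the 17, beside 3.30% and 2.92% of all genes. Il12rb2 stood at 4743 ± 460 normalized counts in restimulated iTregs and 1037 ± 9.5 in activated Tconvs (SD, n = 3). Stat4, which transmits the IL-12 signal, had the reverse order, 451 ± 24.6 against 1544 ± 68.8.

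Of 16 feedback genes and other brakes on STAT signalling, 5 rose and 5 fell on Tconv activation, with 50.2% of all genes changed (median -0.04, as for all genes). Cish, a STAT5 target that dampens IL-2 signalling, rose by 5.45 (adjusted p = 2.17e-16), Socs2 by 3.19 (adjusted p = 2.60e-10), Socs1 by 2.80 (adjusted p = 1.86e-07) and Socs3 by 1.68 (adjusted p = 0.00483). None of the 16 changed in restimulated iTregs by both thresholds in limma, edgeR or DESeq2, where 12.8% of all genes did in limma. Their median was 0.07 against -0.01 for all genes. At an unadjusted limma p under 0.05 there were 6, a rule for which the share of all genes was not computed. Cish was at -0.00, Socs1 at 0.18, Socs2 at -0.44 (adjusted p = 2.52e-05) and Socs3 at 0.45 (adjusted p = 2.96e-05). Socs2 was 0.53 higher with CM-4620 than without it (adjusted p = 2.66e-05). The resting tTreg libraries disagreed on Socs3, at 483, 2765 and 2595 normalized counts.

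Interferon target genes, the best known readout of STAT2 with IRF9, were next compared with its level. Of the 13 listed, 12 passed the filter in the fit with Tconvs and tTregs, 5 of them only through those cells, which bears on their direction, so no count over the 12 is given against iTregs. Of the 7 that also passed it among the iTreg libraries, 6 were lower in resting iTregs than in resting Tconvs and the other, Bst2, was higher (log2 difference 1.09, adjusted p = 3.21e-08). The median of the 7 was -0.97 against 0.02 for all genes, of which 63.6% differed, while Stat2 itself was at 0.52. Irf9 was at -0.82 (adjusted p = 0.000140). Oasl2 had 145, 139 and 182 normalized counts in resting Tconvs and 0, 0 and 2.28 in resting iTregs, and Rtp4 had 136, 134 and 118 against 4.22, 3.03 and 9.11. Both are among the 5 that passed the filter only through Tconvs and tTregs, so their low iTreg values are no added evidence. Both are also at few reads in iTregs, so no fold is given. Against resting tTregs 6 of the 7 were lower and Bst2 higher (median -1.04 against 0.02), with 63.4% of all genes differing.

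On Tconv activation 6 of the 12 interferon targets rose and 2 fell, with 50.2% of all genes changed (median 0.73 against -0.04), and of the 7 above 6 rose and none fell. The 3 largest changes were those of Ifit1 (2.73, adjusted p = 3.27e-08), Oasl2 (-1.99) and Usp18 (1.98, adjusted p = 1.94e-07), and Irf9 rose by 0.70 (adjusted p = 0.000770). In restimulated iTregs, 4 of the 7 rose and none fell, with 12.8% of all genes changed (median 0.86 against -0.01). These were Irf7 (1.21, adjusted p = 0.00513), Isg15 (1.14, adjusted p = 0.0145), Usp18 (0.92, adjusted p = 6.36e-05) and Bst2 (0.86, adjusted p = 8.31e-08), and Irf9 was at 0.47 (adjusted p = 0.000145), below the fold threshold. Irf7 and Isg15 were low even so, at 35.0 ± 3.77 and 25.1 ± 7.85 normalized counts. The filter that chose the 7 also counted stimulated iTreg libraries, so a low gene could pass through those alone. Its part in the count of rises was not tested. Of the 4, Usp18, which restrains the interferon receptor, was lower with CM-4620 (-0.53, adjusted p = 0.0164) and with CsA (-0.59, adjusted p = 0.00835), beside Ifit1, which was higher with CM-4620 (1.11, adjusted p = 0.0374), and Xaf1, which was higher with CsA (0.55, adjusted p = 0.0464). Thus 2 of the 7 passed the thresholds with each drug, beside 3.30% and 2.92% of all genes. DESeq2 called 1 with CM-4620 and edgeR 2, and with CsA each called 1.

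**Figure D5:**
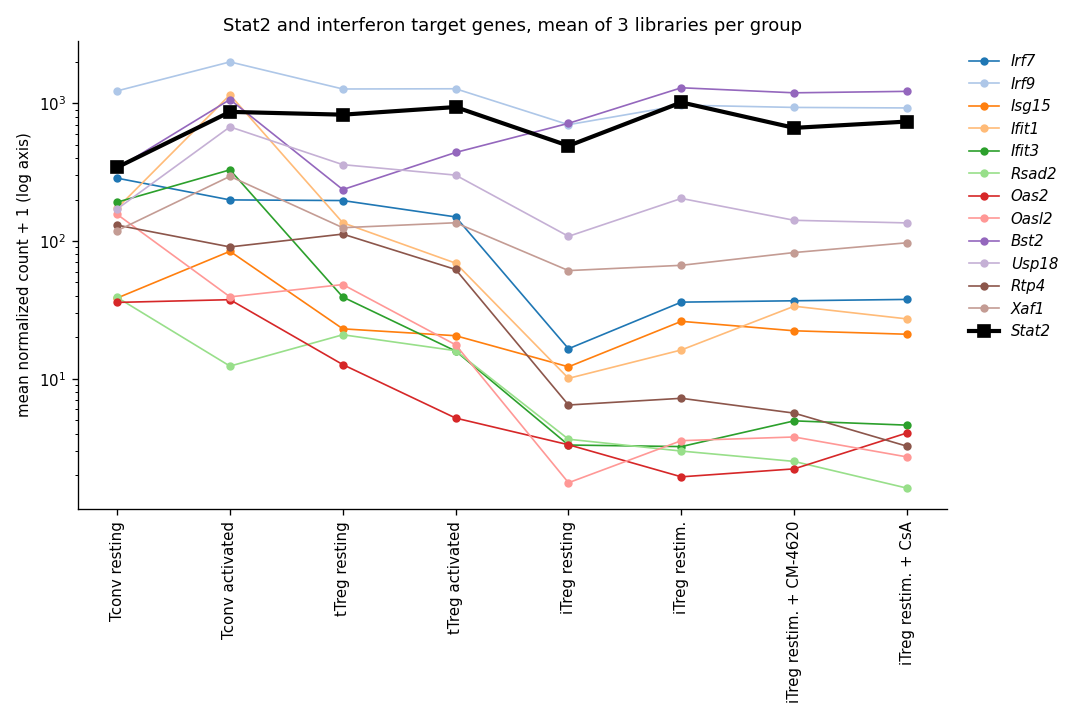
Mean normalized count plus 1 of 3 libraries (vertical log axis) of Stat2 (black squares) and 12 interferon target genes (coloured circles) in the 8 groups. Irf7 and Ifit1, examples picked after their values were seen, are lower in the 4 iTreg groups than in the Tconv and tTreg groups. Bst2 goes the other way, higher in resting iTregs than in resting Tconvs and resting tTregs. Stat2 is higher in resting iTregs than in resting Tconvs.

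Genes linked to STAT5 were higher in iTregs than in Tconvs at rest, 6 of 6 other than Foxp3 (median log2 difference 3.56 against 0.02), where 63.6% of all genes differed, with Il2ra at 8.14 (adjusted p = 1.29e-16) and Socs2 at 6.45 (adjusted p = 6.18e-14). iTregs were sorted on the Foxp3 reporter, so the Foxp3 difference, 6.81, is no finding, and they were kept in IL-2. The same 6 also rose on Tconv activation, with 50.2% of all genes changed (median 2.47 against -0.04). In restimulated iTregs, with 12.8% of all genes changed, 1 of the 6 fell (median -0.28 against -0.01), Pim1 by 0.63 (-0.63, adjusted p = 0.0134), and Foxp3 fell by 0.85 (-0.85, adjusted p = 3.57e-06). Pim1 was 0.66 higher with CsA than without it (adjusted p = 0.0300).

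Of 6 tested genes linked to STAT3, 4 rose and 2 fell on Tconv activation, with 50.2% of all genes changed (median 1.15 against -0.04), and 3 rose and none fell in restimulated iTregs, with 12.8% of all genes changed (median 0.62 against -0.01). The 3 in iTregs were Il21, a cytokine that signals through STAT3 (2.00, adjusted p = 1.31e-09), Maf (0.81, adjusted p = 3.10e-06) and Bcl3 (0.78, adjusted p = 1.91e-05). None of the 6 changed with CM-4620 or CsA by both thresholds in limma, edgeR or DESeq2. At an unadjusted limma p under 0.05 there were 1 and 3, with no share of all genes computed for that rule. Il21 was at -0.28 (adjusted p = 0.0832) and -0.36 (adjusted p = 0.0254), respectively.

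Among 6 genes linked to STAT4, 3 rose and 2 fell on Tconv activation, beside 50.2% of all genes (median 1.27 against -0.04), with Il12rb2 at 5.61 and Tbx21, which encodes T-bet, at 2.97 (adjusted p = 0.000629). In restimulated iTregs 3 rose and 2 fell, beside 12.8% of all genes (median 0.88 against -0.01), with Il12rb2 at 2.56, Il18rap at -1.67 (adjusted p = 3.55e-05) and Tbx21 at 1.13 (adjusted p = 0.0212). CM-4620, which changed 3.30% of all genes, lowered 3, Tbx21 by 1.64 (-1.64, adjusted p = 0.00773), Il12rb2 and Furin, the last at -0.50 (adjusted p = 0.00248), and Il18rap was 0.85 higher with it (adjusted p = 0.0239). DESeq2 called 3 of the 6 there and edgeR 4. CsA lowered 2 of the 6, Il12rb2 and Ifng (adjusted p = 0.0219), beside 2.92% of all genes. Ifng is at few reads, 16.8 ± 3.21 normalized counts without and 2.39 ± 2.58 with CsA, so no fold is given. Of the 5 genes in the STAT6 list, only 2 passed the filter in the fit with Tconvs. Both rose on Tconv activation, Il4ra (2.16, adjusted p = 1.09e-12) and Gata3 (0.99, adjusted p = 5.18e-06), beside 50.2% of all genes. In restimulated iTregs neither of these 2 passed both thresholds, beside 12.8% of all genes. Il4 passed the filter only through stimulated iTreg libraries, which bears on its direction. It had 27.0 ± 3.3 normalized counts in restimulated iTregs, and no fold or count is given for it.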

How the data were processed

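RNA-seq of 24 libraries of mouse CD4+ T cells was analysed. Per the study's methods and the submitters' processing notes, the authors trimmed reads with Cutadapt 1.18, aligned them to mm10 with STAR 2.5.3, quantified genes with RSEM 1.3.0 and used DESeq2 1.26. The deposited signal values are gene counts that the authors divided by 1 size factor per library, with no log. Every value came out as a whole number of reads (tolerance 0.01), so depth was recovered (median 10801942 reads). ATAC-seq and CUT&Tag data were not analysed here.

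Groups were taken from the labels. limma 3.58.1 (R 4.3.3), with its trend option, was fitted to log2(normalized count + 1) for genes that reached 10 normalized counts in 3 or more libraries of the fit, in place of the DESeq2 fit of the methods, since the table holds no raw counts. The 15 libraries of Tconvs, tTregs and resting iTregs, the 12 iTreg libraries and all 24 libraries were fitted separately (11495, 11105 and 11725 genes). p-values were two-sided and adjusted by Benjamini-Hochberg over all genes of a fit. Fold changes are on the log2(count + 1) scale, which understates changes of low genes. Levels per kb used the union of exons. edgeR 4.0.16 and DESeq2 1.42.0 were run on recovered reads, beside other scalings, pseudocounts, filters, thresholds, a replicate block and each library left out. The script was tested on simulated data.

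The members and lists were chosen with earlier results of these data known. Of the STAT3-linked list, 1 gene is not reported here and is left out of its counts. Both comparisons of inhibitor-treated with resting iTregs were added after the data were seen. Besides the members, the text names up to 3 genes of a list with the largest changes past the thresholds, Irf9, Cish, Socs1, Socs2, Socs3 and the 4 Janus kinases always, the 3 genes most like each member by Pearson r, and genes picked after their values were seen (Rtp4, the 4 interferon targets that rose in iTregs, Irf7 and Ifit1 as examples in a plot, Furin, and Il21 with the inhibitors). Counts over 7 interferon targets and over the STAT5-linked genes other than Foxp3 were also added then. Python 3.11.15, pandas 2.3.3, numpy 2.4.6 and matplotlib 3.10.9 were used for the rest.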

Additional observations from a re-analysis of the deposited data

Results flagged for a closer look

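For 7 results the response to stimulation differed between cell types by the limma test of the difference itself, given here as log2 differences. Stat2 responded more in Tconvs than in tTregs by 1.16 and more in iTregs than in tTregs by 0.87. The Stat5a response in Tconvs exceeded that in tTregs by 1.83, and the iTreg minus Tconv difference was -1.85. For Stat4 the iTreg minus tTreg difference was 0.62. For Stat5b the iTreg response was above the tTreg response by 0.54 and above the Tconv response by 0.85. The 7 share resting and stimulated libraries and are not independent of each other. The 0.54 of Stat5b was 0.37 without activated tTreg replicate 2, and its cause was not tested.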

How the results depend on the processing

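Over 18 comparisons of 6 genes, the 108 log2 differences kept their direction and call under both other pseudocounts, both other filters and the replicate block. In the 15 libraries, same-number replicates of different groups were not more alike than others (mean r -0.0070 against 0.0034, 6 of 30 pairs above 0.1). In the 12 iTreg libraries they were more alike (mean r 0.15 against -0.075, 10 of 18 pairs above 0.1), so the numbers may pair the samples there. With the replicate block 5 members changed in activated Tconvs and 2 in restimulated iTregs, as without it. Of the 108, edgeR, DESeq2 and recomputed size factors kept 105 each, and quantile normalization 97. The causes of the changes were not tested.

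The share of all genes past the same rule is in brackets. With a log2 threshold of 1 the members changed numbered 2 in activated Tconvs (26.5%), 1 in resting iTregs against resting Tconvs (41.6%), 1 in restimulated iTregs (4.24%), 1 for the iTreg against Tconv response (24.4%), and 0 for tTreg activation (6.64%), CM-4620 against restimulated cells (0.882%), the iTreg against tTreg response (8.34%) and CsA against resting cells (2.66%). With the adjusted p alone they numbered 4 for tTreg activation (34.7%), restimulated iTregs against activated Tconvs (60.4%), the iTreg against Tconv response (50.8%) and CM-4620 against resting cells (18.4%), 2 for activated tTregs against Tconvs (61.1%) and CsA against restimulated cells (8.51%), and 5 for CM-4620 against restimulated cells (7.83%). Quantile normalization gave 2 for tTreg activation (22.4%) and 2 for activated tTregs against Tconvs (46.8%). Leaving out 1 library gave 1 to 2 in each of these last comparisons and 0 to 1 for CsA against restimulated cells.

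The reversed differences were all uncalled. Stat4 in activated tTregs minus Tconvs was -0.0059 with recomputed size factors, -0.0033 by DESeq2 and -0.041 to 0.074 leaving out 1 library. Stat5b in resting iTregs minus activated Tconvs was -0.019 with quantile normalization. Stat6 there was -0.016 with size factors, -0.11 with quantile normalization, -0.015 by edgeR, -0.015 by DESeq2 and -0.043 to 0.024 without 1 library. Stat6 in CM-4620 minus CsA was -0.10 to 0.0023 without 1 library. Stat3 in restimulated iTregs minus activated tTregs was -0.11 with quantile normalization and -0.055 to 0.25 without 1 library. Stat5a in the iTreg minus tTreg response was 0.047 with quantile normalization, 0.0050 by edgeR and -0.15 to 0.067 without 1 library. Stat5b in CsA minus resting cells was -0.062 to 0.016 without 1 library. Depth was not limiting for the members, at 346 or more reads in every library.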

Other observations

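The pathway lists were also followed in tTregs. At rest, tTregs exceeded Tconvs in 10 of 17 cytokine receptors and were lower in 4 (median log2 difference 0.83 against -0.02 for all genes, of which 38.6% differed). The 3 largest were those of Il2ra (7.37, adjusted p = 2.66e-16) and Il2rb (4.05, adjusted p = 4.85e-14), both chains of the IL-2 receptor, and Il7r, the IL-7 receptor chain (-3.75, adjusted p = 3.32e-12). Jak3, the kinase of the common γ chain, was higher by 2.13 (adjusted p = 3.11e-07), and of the feedback genes Socs2 by 5.56 (adjusted p = 7.55e-13) and Cish by 5.23 (adjusted p = 2.66e-16). The 6 STAT5-linked genes other than Foxp3, on whose reporter these cells were sorted, were all higher in tTregs (median 3.61). Of the 7 interferon targets that passed the filter also among the iTreg libraries 1 was lower and 1 higher (median -0.38), while Stat2 was 1.27 higher. On tTreg activation 1 of the 17 receptors rose and 5 fell, with 21.9% of all genes changed (median -0.16 against 0.00). These included Il6ra at -1.31 (adjusted p = 4.35e-05), Il12rb2 at -1.16 (adjusted p = 0.0117) and Il12rb1 at 0.96 (adjusted p = 2.15e-05). The IL-12 receptor chains therefore moved in opposite directions there, and both rose in activated Tconvs and restimulated iTregs. Of the 7 interferon targets 1 rose and 1 fell on tTreg activation, beside the same 21.9% of all genes (median -0.22).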
